A study of Homo sapiens with 2 samples.

Results

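The 8 genes described here encode some of the largest ubiquitin ligases of the human cell: HUWE1, HERC1, HERC2, UBR4, BIRC6, MYCBP2, TRIP12 and RNF213. They were taken by name, as every probe set whose platform annotation gives exactly 1 of these symbols, which gave 31 probe sets. The array as a whole holds 41091 probe sets with 1 symbol, for 19775 genes. A probe set, the group of short probes that reads 1 transcript, counted as detected if its mean over both arrays exceeded 0.92. By that rule 21 of the 31 were detected, beside 23302 of all 41091. Each of the 8 genes had at least 1 of them, beside 13144 of 19775 genes. The cutoff lies next to the median of all probe set means (0.918), so passing it does not by itself show expression.

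The RNA came from human 293T cells, an embryonic kidney line that carries the SV40 large T antigen, and was recovered by immunoprecipitation and hybridised to Affymetrix U133 Plus 2.0 arrays. In the miR-941 group, cells received synthetic miR-941 at 30 nmol/l and the precipitating antibody was directed at Ago2, an Argonaute protein, which carries microRNAs. In the control group, cells received a scrambled oligo at 30 nmol/l; its title calls it an Ago2 precipitate and its description speaks of mock transfection, whereas its antibody entry names nonimmune IgG beads. If that entry holds, the oligo and the antibody differ together and cannot be told apart. Each group is 1 array, with no input RNA beside it, so more mRNA in the cells and better recovery in the precipitate cannot be told apart. No difference below has a replicate check, and no test was possible.

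Ubiquitin reaches a protein through an activating enzyme (E1), a conjugating enzyme (E2) and a ligase (E3), and the ligase picks the substrate. HECT ligases take ubiquitin onto a cysteine of their own before passing it on, while RING ligases mostly bring a loaded E2 next to the substrate. Ligases as large as these act as platforms for quality control, DNA repair, cell death and the turnover of unassembled subunits, and several have been linked to neurodevelopmental disorders.

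The microRNA itself is shown because it is the agent that the comparison is about. Its mature form, from RefSeq (GRCh38.p14), is the same in 5 annotated MIR941 genes, the first of which lies on the plus strand at chr20:63919495-63919517. It is 23 bases long, and the capitals mark its seed, bases 2 to 8, through which a microRNA mostly recognises its targets.
hsa-miR-941: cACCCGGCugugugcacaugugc
The mRNA sequences of the ligases were not searched for matches to this seed, and the positions of the probe sets along the mRNAs were not analysed here.

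On its brightest probe set each of the 8 ligase genes had a lower value after miR-941 than after the scrambled oligo. The background was 42.4% of 13144 detected genes lower and 46.3% higher. The differences (miR-941 minus control, log2) ran from -0.06 for HUWE1 to -0.78 for RNF213, with a median of -0.17 where the median of all detected genes was 0. Over the 21 detected ligase probe sets, 14 were lower, 4 higher and 3 equal on both arrays, beside 43.4% lower, 44.2% higher and 12.5% equal among all 23302 detected probe sets with 1 symbol. None of the 21 differed by 2-fold, a size reached by 0.841% of detected probe sets. With a trend of the difference with level removed, all 8 were lower as well, beside 50% of all detected genes. With the mean over detected probe sets 7 were lower (background 44.5%), and with the median 6 (43.1%). Without the probe sets that can bind other transcripts, those with the suffixes _x_at and _s_at, 2 of 3 were lower (42.8%).

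**Figure D1:**
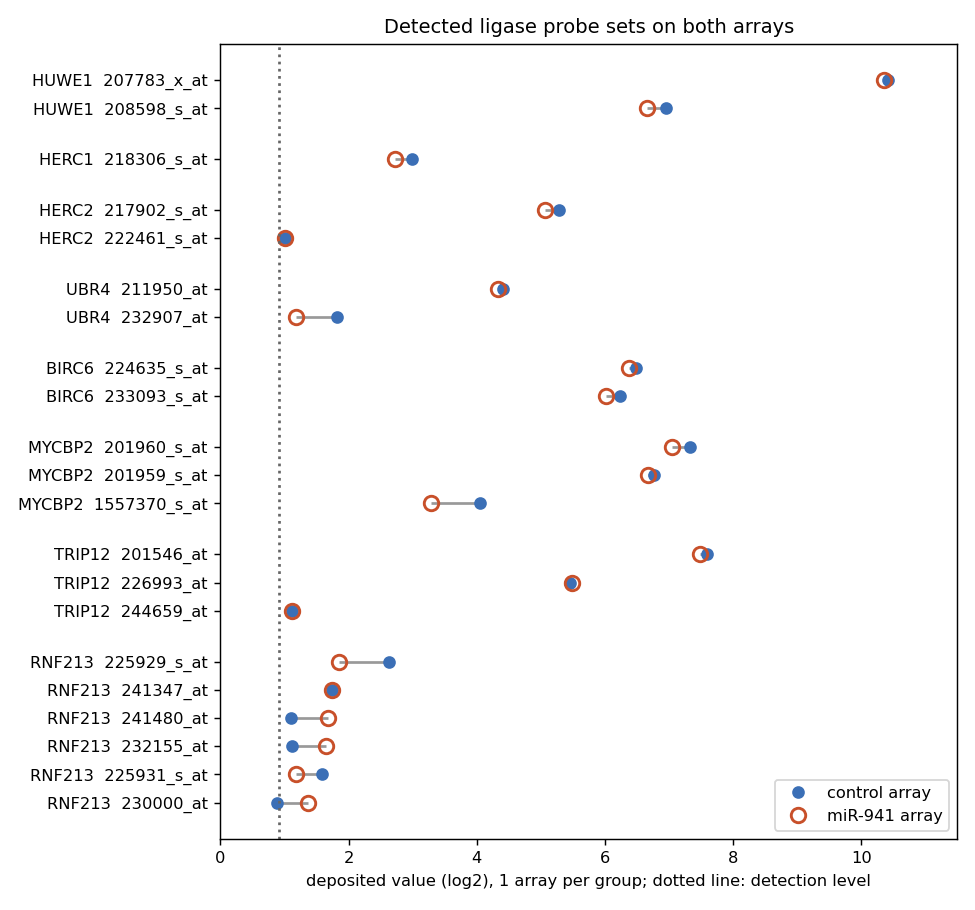
Deposited values (log2, horizontal axis) of the 21 detected ligase probe sets on the control array (filled blue) and the miR-941 array (open orange), 1 array per group, with the detection level of 0.92 dotted. Lines join the values of a probe set; in most rows the open circle lies slightly to the left, while 3 RNF213 probe sets have it to the right.

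These differences were small beside the disagreement between probe sets of the same gene. The SD of differences within a gene, pooled over 6102 genes with 2 or more detected probe sets, was 0.31; probe sets share the hybridisation and are not replicates. Of the 8 brightest probe sets only that of RNF213 differed by more than that SD, which is pooled over all levels. The 7 genes other than RNF213 lay within 0.21 of one another, which is less than the pooled SD, so their order is not resolved. Over all detected probe sets the SD of differences was 0.39 at levels from 2 to 4, where RNF213 lay, and 0.22 from 6 to 8. In that upper range the brightest probe set of MYCBP2, at -0.27, lay beyond 0.22, and those of BIRC6 and TRIP12 did not. Among their dimmer probe sets there, 208598_s_at of HUWE1 (-0.30) and 233093_s_at of BIRC6 (-0.23) lay beyond it. 201959_s_at of MYCBP2 (-0.09) did not, so MYCBP2 does not stand out. The share of all probe sets beyond that SD was not computed. MYCBP2 and RNF213, the neighbours at the lower end, were 0.51 apart. Of the 21 detected probe sets, 7 differed by more than the pooled SD, 5 of them of RNF213, beside 28.5% of all detected probe sets.

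HUWE1, a HECT ligase whose substrates include MCL1 and MYC, had 5 probe sets, of which 2 were detected. Its probe set 207783_x_at read 10.42 (control) and 10.36 (miR-941), a difference of -0.06, or 95.8% of the control level. Probe set 208598_s_at read 6.95 and 6.65, a difference of -0.30 or 81.2%. Both were lower, with a median of -0.18 ± 0.17 (SD over 2 probe sets). Neither HUWE1 value comes from a probe set without such a suffix. The remaining 3 stayed under the detection level: 236294_at read 0.75 on both arrays, 214673_s_at 0.28 and 0.51, and 208599_at 0.07 and 0.51.

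HERC1, a HECT ligase that also carries RCC1-like repeats, rested on 1 detected probe set. 218306_s_at read 2.99 (control) and 2.73 (miR-941), a difference of -0.26, or 83.6% of the control level. Its other probe sets, 240702_at (0.10 and 0.29) and 240703_s_at (0.21 and 0.16), were under the detection level and differed in opposite directions.

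HERC2, a HECT ligase that works in the response to DNA breaks and in iron and centrosome control, had 2 probe sets, both detected. 217902_s_at read 5.29 and 5.06, a difference of -0.22 or 85.7%. The second, 222461_s_at, read 1.00 on both arrays and was the ligase probe set just inside the detection rule; just outside lay 215636_at of UBR4, at 0.87 on both. The value of 222461_s_at on the control array was held by 160 probe sets in all, so an equal reading there does not show an unchanged mRNA. The genome carries near-identical partial copies of HERC2, and HERC2 values are uncertain to the extent that those copies hybridise too. A probe set annotated to the copies HERC2P9 and HERC2P2, 217317_s_at, read 6.21 (control) and 5.54 (miR-941), a difference of -0.68. That is a larger difference than on either HERC2 probe set. A probe set annotated to both HERC2 and HERC2P10 read 0.40 on both arrays and is outside the rule for members.

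TRIP12, a HECT ligase of the nucleus that acts on the tumour suppressor ARF and in the response to DNA damage, differed least among the genes with 3 detected probe sets or more. 201546_at read 7.59 and 7.48 (-0.12, or 92.2% of the control level). 226993_at read 5.45 and 5.48 (0.03), and 244659_at read 1.12 on both arrays. One probe set was thus lower, 1 higher and 1 equal, with a median of 0 ± 0.08 (SD over 3 probe sets). None of the 3 carries the suffixes _x_at or _s_at. Over the 4 HECT members together, 5 of 8 detected probe sets were lower, 1 higher and 2 equal, with a median of -0.09. Among all detected probe sets 43.4% were lower, 44.2% higher and 12.5% equal. The control values of the 2 equal ones, 222461_s_at and 244659_at, were held by 160 and 276 probe sets.

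MYCBP2, also called PAM or PHR1, is a RING ligase that relays ubiquitin through cysteines and is best known for control of axon growth and degeneration. Of the 7 genes of the set with 2 or more detected probe sets, MYCBP2 was 1 of 4 with all of them lower. In the background this held for 17.1% of 6102 such genes, and 16.5% had all of them higher. 201960_s_at read 7.32 and 7.05 (-0.27, or 82.8% of the control level). 201959_s_at read 6.77 and 6.67 (-0.09, 93.8%), and 1557370_s_at read 4.06 and 3.29 (-0.77, 58.7%). All 3 are _s_at probe sets, and although they share a direction they span 0.68, with a median of -0.27 ± 0.35 (SD over 3 probe sets).

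RNF213, a giant RING ligase with an AAA ATPase core that coats intracellular bacteria and is linked to moyamoya disease, had the most probe sets (8, of which 6 were detected) and the least agreement. Its 225929_s_at read 2.64 (control) and 1.86 (miR-941), a difference of -0.78 or 58.1% of the control level. 225931_s_at was lower too, at 1.59 and 1.19 (-0.40). The opposite held for 3 others: 241480_at read 1.10 and 1.68 (0.58), 232155_at 1.12 and 1.65 (0.53), and 230000_at 0.89 and 1.36 (0.47). 241347_at read 1.75 on both arrays.

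The RNF213 differences thus ran from -0.78 to 0.58, with a median of 0.24 ± 0.56 (SD over 6 probe sets). The mean was 0.0658. 230000_at was under the detection level on the control array and counted as detected only through its miR-941 value. Without it 2 of the 5 probe sets were lower, 2 higher and 1 equal, with a median of 0, and 3 of 20 ligase probe sets were higher in all. Both lower probe sets are _s_at, and all 3 higher ones are not. Except for the control reading of 225929_s_at, these values lie near the detection level, where different probe sets often hold one and the same reading. The miR-941 value of 225929_s_at was held by 28 probe sets in all. The control value of 232155_at was shared by 276 probe sets, among them 244659_at of TRIP12. No direction can be given for RNF213 from these arrays. Without RNF213, left out here with its values known, the median of the other 7 genes was -0.12. Of their 15 detected probe sets 12 were lower, 1 higher and 2 equal. Among all detected probe sets, disagreeing genes included, 43.4% were lower, 44.2% higher and 12.5% equal.

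**Figure D2:**
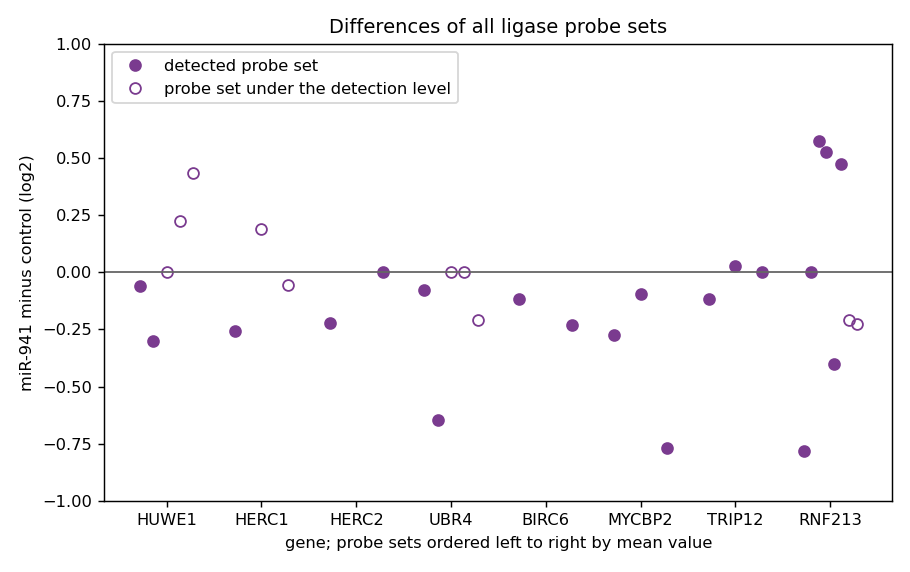
Difference (miR-941 minus control, log2, vertical axis) of all 31 ligase probe sets by gene; filled points are detected and open points are under the detection level. HUWE1, HERC1 (1 point), UBR4, BIRC6 and MYCBP2 have all their detected points below 0, while RNF213 spans -0.78 to 0.58.

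UBR4 recognises destabilising N-terminal residues through its UBR box and works with KCMF1 in the turnover of unassembled and mislocalised proteins. 211950_at read 4.41 and 4.34 (-0.08, or 94.7% of the control level). 232907_at read 1.82 and 1.18 (-0.65, 63.9%), so the detected probe sets shared a direction but differed in size, with a median of -0.36 ± 0.40 (SD over 2 probe sets). The larger difference belongs to a probe set whose miR-941 reading is close to the detection level. Neither carries the suffixes _x_at or _s_at. The other 3 were under the detection level: 215636_at and 1563113_at (0.62) were equal on both arrays, and 231889_at read 0.50 and 0.29.

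BIRC6, also called BRUCE or APOLLON, is an inhibitor of apoptosis that joins the E2 and E3 activities in 1 protein and takes its ubiquitin from the E1 enzyme UBA6. 224635_s_at read 6.49 and 6.37 (-0.12, or 92.3% of the control level), and 233093_s_at read 6.24 and 6.01 (-0.23, 85.3%). Of the genes with 2 detected probe sets, BIRC6 had the closest agreement: both were lower, with a median of -0.17 ± 0.08 (SD over 2 probe sets). Both are _s_at.

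Bright and dim ligase probe sets were also counted apart. Of the 11 ligase probe sets above the 75th percentile of level (3.37), 10 were lower and 1 was higher, beside 48.1% lower among all probe sets above it. They belong to 6 genes (HERC1 and RNF213 have none), and all 6 were lower on the brightest probe set, beside 46.2% of genes above that level. Of the 10 detected ligase probe sets at or under that level, 4 were lower, 3 higher and 3 equal. Among all detected probe sets with 1 symbol, 35.8% were lower at levels from 0.92 to 2 and 43.1% from 2 to 4. The 10 ligase probe sets that were not detected split into 4 lower, 3 higher and 3 equal, with differences from -0.23 to 0.44. A difference of 1.5-fold was reached by 3 detected ligase probe sets, all lower (225929_s_at of RNF213, 1557370_s_at of MYCBP2 and 232907_at of UBR4). Among all detected probe sets 4.04% were lower and 3.61% higher by that much. On the brightest probe set RNF213 alone reached it, beside 2.87% of detected genes lower and 2.92% higher by 1.5-fold.

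**Figure D3:**
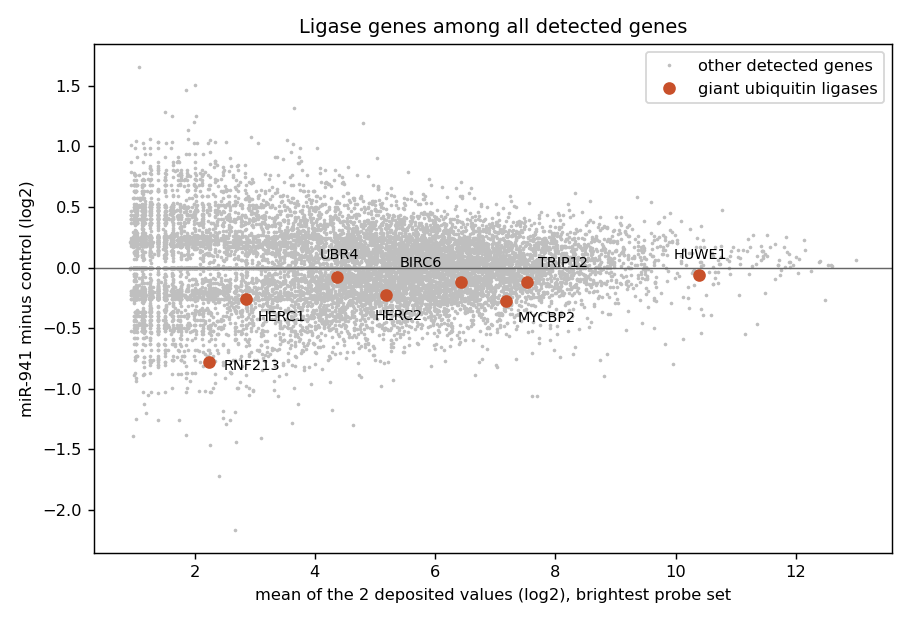
Difference (miR-941 minus control, log2, vertical axis) against the mean of both values (log2, horizontal axis) for the brightest probe set of each of the 13144 detected genes (grey), with the 8 ligases in orange. All 8 lie below 0 and, apart from RNF213, by less than 0.30, the SD of differences over all detected genes. HUWE1 lies at the bright end, where genes are few.

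The counts differed with the kind of probe set used, which cannot be told apart here from gene and level. Of the 21 detected ligase probe sets, 12 are _x_at or _s_at, and 5 of the 8 genes (HUWE1, HERC1, HERC2, BIRC6 and MYCBP2) have no other detected probe set. When these were left out, 3 genes remained, of which 2 were lower (TRIP12 and UBR4) and RNF213 was equal on 241347_at. For genes the background was then 42.8% of 10099 lower. Of the 9 probe sets left 3 were lower, and the 3 higher RNF213 probe sets were among the others. No background share was computed for probe sets without these suffixes. With the median over detected probe sets in place of the brightest, 6 of 8 genes were lower, beside 43.1% of all detected genes.

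Control probe sets at the ends of long-known mRNAs also differed between the arrays. The control at the 5' end of the actin mRNA ACTB read 7.15 (control) and 6.49 (miR-941), a difference of -0.66. The middle one read 8.50 and 8.13 (-0.37), and the 3' one 9.85 and 9.81 (-0.04). For GAPDH the differences from 5' to 3' were -0.19, -0.07 and 0.05. The part of such a 5' to 3' difference in the values of the ligases, whose mRNAs are very long, was not tested. Over the whole array 13144 of 19775 genes were detected. Of 7 genes described in 293T cells, 6 were detected, among them NEFL (6.99 and 7.37), VIM (8.82 and 8.70) and INA (3.72 and 3.13). PAX2, at 0.86 and 1.23, counted as detected only through its miR-941 value, and KRT8 was under the detection level. Of 16 measured markers of blood, endothelium, liver, fibroblasts, keratinocytes and muscle, 6 were detected: HBB, PECAM1, VWF, APOA1, COL1A1 and KRT5. The brightest probe set of VWF (0.66 and 1.39) passed only through its miR-941 value, and that of APOA1 (1.21 and 0.80) only through its control value. Among the markers not detected, the leukocyte gene PTPRC read 0.54 and 0.33. The brightest of the 6, HBB of beta globin, read 6.95 and 7.54 on an _x_at probe set. All 4 HBB probe sets were detected, 3 higher and 1 lower, with a median of 0.67.

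Of 21 other HECT ligases detected, 14 were lower on the brightest probe set, 4 higher and 3 equal, with a median of -0.08. NEDD4, which sorts membrane proteins, had the lowest difference: its 1 probe set read 3.90 and 3.30 (-0.59). HERC5, the ligase for the ubiquitin-like ISG15, had the highest, at 6.05 and 6.36 (0.31). UBE3A, the gene of Angelman syndrome, had 7.41 and 7.10 (-0.31), with 4 of its 5 detected probe sets lower and a median of -0.10. None of the 21 differed by 2-fold, a size reached by 0.51% of detected genes.

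Large deubiquitylases, which remove ubiquitin, had a median like that of the ligases. Of 7 detected, 6 were lower and 1 higher, with a median of -0.18. USP8, which acts at endosomes, had the lowest difference, at 6.32 and 5.90 (-0.43), and both of its probe sets were lower. USP19 had the highest, at 4.94 and 5.16 (0.22), but 1 of its 2 probe sets was lower and their median was -0.09. USP7, a deubiquitylase of the nucleus, read 7.18 and 7.15 (-0.03), with 2 of 4 probe sets higher. Without _x_at and _s_at probe sets the median of the list was -0.0394 over 5 genes.

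The enzymes that feed the ligases were divided. Of 25 detected E1 and E2 genes, 13 were lower, 11 higher and 1 equal, with a median of -0.02. UBA6, the E1 that serves BIRC6, read 5.90 and 5.85 (-0.05), with 3 of 4 detected probe sets lower. UBE2J1, an E2 of the endoplasmic reticulum, had the lowest difference of the list, at 5.10 and 4.73 (-0.37). UBE2E2 had the highest, at 6.50 and 7.02 (0.52).

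Relatives by domain were few. Of 5 detected UBR box genes 4 were lower and 1 higher, with a median of -0.05, from UBR2 at 4.10 and 3.84 (-0.26) to UBR1 at 5.26 and 5.39 (0.13), both of them ligases of the N-degron pathway. Without _x_at and _s_at probe sets 2 of the 5 were lower and the median was 0.13. Of 5 detected genes of the inhibitor of apoptosis family, to which BIRC6 belongs, 2 were lower, 2 higher and 1 equal (median 0). XIAP, the inhibitor of caspases, had the lowest difference, at 7.60 and 7.09 (-0.51), with all 6 detected probe sets lower and a median of -0.30 ± 0.20 (SD over 6 probe sets). NAIP, the sensor subunit of an inflammasome, had the highest, at 2.27 and 2.42 (0.15).

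Partners and substrates of the ligases showed no common direction. Of 21 detected, 12 were lower and 9 higher, with a median of -0.03, which turned to 0.11 with the median over probe sets. MCL1, the anti-apoptotic substrate of HUWE1, read 7.20 and 6.82 (-0.39), but 2 of its 4 detected probe sets were higher and their median was 0.12. MYC read 9.24 and 9.10 (-0.13) on its 1 probe set.

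FBXO45, the partner of MYCBP2, read 6.62 and 6.60 (-0.03), with all 3 probe sets lower. KCMF1, the partner of UBR4, read 8.26 and 8.16 (-0.10), with 2 of 4 probe sets higher. NEURL4, a partner of HERC2, read 2.72 and 2.62 (-0.10). DIABLO, the mitochondrial protein that BIRC6 degrades, read 6.83 and 7.21 (0.37), and TSC2, which binds HERC1, read 3.67 and 3.78 (0.11). USP20, a deubiquitylase controlled by HERC2, had the lowest difference of the list, at 2.15 and 1.65 (-0.50), and the replication factor CDC6 the highest, at 5.88 and 6.27 (0.39), with 1 of its 2 probe sets lower.

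Subunits of the cullin RING ligases, the largest E3 family, were split as well: 8 of 15 were lower and 7 higher, with a median of -0.01. The scaffold CUL5 had the lowest difference, at 6.88 and 6.54 (-0.35), and the adaptor DDB1 the highest, at 6.67 and 7.01 (0.34). With differences taken as the median over probe sets, 4 of 15 were lower and the median was 0.13.

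**Figure D4:**
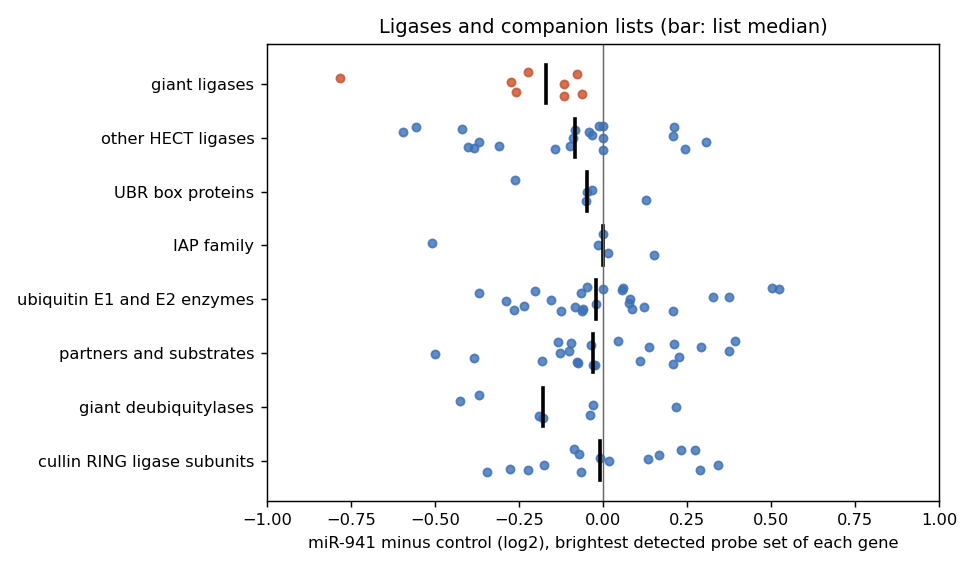
Difference (miR-941 minus control, log2, horizontal axis) on the brightest detected probe set of each gene, for the 8 giant ligases (orange) and 7 lists of other ubiquitin genes (blue), with the list median as a black bar. The bars of the giant ligases (-0.17) and of the deubiquitylases (-0.18) lie farthest to the left, and the lists overlap widely.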

How the data were processed

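The deposited table holds 1 log2 value per probe set and array; per the series' design text, the authors used RMA in R, and the submitters' processing notes add affy and MAS5. The scale is not written: the values reached 13.7, above 11.1, the natural log of the highest 16-bit reading, and were taken as log2. Array medians were 0.92 (control) and 0.98 (miR-941). The genome build is not given in the sources used here, so no array coordinates are printed.

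The platform annotation named the probe sets, with symbols updated by Entrez identifier (41037 of 41091 matched). Genes without a probe set of exactly 1 symbol were not analysed here. The brightest detected probe set stands for a gene. Named genes are all members, the highest and lowest of each list, and a set of partners and relatives. Members and lists were chosen with earlier results of these data known. Alternatives covered the probe set rule, suffixes, level filter, low values, centring and a lowess trend (fraction 0.3). Scripts ran in Python 3.11.15 with pandas 2.3.3 and statsmodels 0.14.6 and were tested on simulated data. With 1 array per group no p-value is given, and the number of arrays limits the precision.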

Additional observations from a re-analysis of the deposited data

How the results depend on the processing

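No paired analysis was possible because there is 1 array per group, and no array could be left out. A value was taken to have moved when it changed by more than the pooled within-gene SD (divided by the square root of the number of genes for a list median) or, for counts, by over 1.5 times. That SD (0.31) exceeds the reported difference of every ligase gene but RNF213, so a change to 0 would not count for them. TRIP12 went from -0.12 to 0 with the median over probe sets and was not counted as moved. Of 207 recomputed values 20 moved; the cause was not tested for those, apart from fewer probe sets under a stricter choice. The remaining 187 are no measure of stability, since 114 were identical by value to those reported: centring subtracted a median difference of 0 (26 of 26 identical), and setting low values to the detection level (26 of 26) or dropping the level filter (25 of 26) left almost all brightest probe sets as they were. Without _x_at and _s_at probe sets, RNF213 had 0, and 2 of 3 ligase genes and 3 of 9 ligase probe sets were lower. UBR box genes then had 2 lower and a median of 0.13, and deubiquitylases a median of -0.0394. Partners and substrates had 6 of 11 lower and cullin subunits 5 of 12. Counts were compared without the number of genes, so a smaller list alone can count as moved. Partners had 12 of 21 lower on the brightest probe set. With the mean over probe sets, RNF213 had 0.0658, partners a median of 0.10, and cullin subunits 4 lower and a median of 0.0793. With the median over probe sets, RNF213 had 0.24, partners 6 lower and a median of 0.11, and cullin subunits 4 lower and a median of 0.13. With the median over probe sets above the detection level on each array, chosen after seeing the data, RNF213 had 0. With the lowess trend removed, 4 inhibitor of apoptosis genes were lower. At 1.5-fold in place of 2-fold, 3 ligase probe sets were counted. The comparison with all genes of equal or greater protein length was not run, since protein lengths were not used here. Many dim probe sets share the same readings, which limits what the dim probe sets of RNF213, HERC2 and TRIP12 can show.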
